A study of Mus musculus with 4 samples.

Results

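Insulin-type T cells were taken here as islet T cells whose T-cell receptor alpha chain (TRA) joins a TRAV5-4, TRAV5D-4 or TRAV5N-4 segment to TRAJ53 or TRAJ42. They were chosen by segment names alone, from called cells with exactly 1 productive beta chain (TRB) and at least 1 productive TRA, using the TRA with the most UMIs (unique molecular identifiers, each marking 1 captured transcript). The rule found 150 cells among 11035 paired cells (1.36%). They formed 66 of 7179 clonotypes (0.919%), a clonotype being the cells of a library whose 2 chains match in V, in J and in every CDR3 base. Insulin recognition was not measured in the contig tables used here, so the name describes a receptor type and not a specificity, and CD4 or CD8 type was not known.

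The receptors were read from pancreatic islet cells of 2 genotypes. NOD mice, labelled WT, become diabetic spontaneously through autoimmunity. Tet2KO NOD mice carried Tet2-/-, the loss of an enzyme that oxidises methylcytosine, crossed from B6 onto NOD for over 14 generations. Each genotype had 2 libraries, numbered as set 1 and set 2, and each library pooled the islets of 4 to 6 mice. The series gives 10 to 13 weeks of age; the protocol counts those weeks from an event written BTM and mentions donors for bone marrow transplant, so age and transplantation were not settled. The pools are the replicates, and clonotypes from 1 mouse and from several mice in a pool cannot be told apart. The contig tables held 85137263 to 220516119 reads per library, 1664 to 6835 called cells, 1392 to 5564 paired cells and 899 to 3594 paired clonotypes. NOD 1 was the deepest on each of these counts. Both NOD libraries were above both Tet2KO NOD libraries on each of them, so genotype and depth ran together.

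An alpha-beta T-cell receptor reads a peptide held by an MHC molecule. CDR1 and CDR2 are encoded in the V segment, and CDR3 is formed where V joins J (alpha) or V, D and J (beta), with bases trimmed and added at random. In NOD mice a major target of autoimmunity is the insulin B chain, where CD4 T cells recognise a peptide on the class II molecule I-Ag7, and TRAV5D-4 joined to TRAJ53 or TRAJ42 is the alpha chain best known from such cells. The name TRAV5D-4 occurred in 0 contigs of these libraries. The deposited names were TRAV5-4 and TRAV5N-4, near-identical copies of that segment, and a NOD allele may be closest to another copy of the reference, so the copy is uncertain.

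The alpha chains turned on a few bases at the join. Segments lie on the plus strand of GRCm38, the C57BL/6J genome: TRAV5-4 at chr14:53704007-53704514, TRAV5N-4 at chr14:53312904-53313422, TRAJ53 at chr14:54162644-54162709 and TRAJ42 at chr14:54175773-54175836. The germline ends are printed first, from the conserved cysteine codon for V and over the whole segment for J. Some recurrent CDR3 sequences of the members follow, and that of the largest TRAV5N-4 clonotype, which did not recur. For glutamate then glycine and for threonine then serine, 1 of 2 nucleotide forms is shown. Bases are in lower case where they match the germline V or J end and in capitals where they match neither. Capitals may hold NOD variants as well as added bases.
TRAV5-4 end: tgtgctgcaagtg
TRAJ53: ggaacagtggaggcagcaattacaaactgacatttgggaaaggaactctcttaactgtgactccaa
TRAJ42: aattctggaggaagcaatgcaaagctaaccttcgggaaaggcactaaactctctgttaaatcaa
TRAJ53 with glutamate then serine, form 1: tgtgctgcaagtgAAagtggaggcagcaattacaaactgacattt
TRAJ53 with glutamate then serine, form 2: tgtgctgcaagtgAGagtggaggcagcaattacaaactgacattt
TRAJ53 with glutamate then glycine: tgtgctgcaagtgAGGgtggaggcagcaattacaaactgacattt
TRAJ53 with alanine then serine: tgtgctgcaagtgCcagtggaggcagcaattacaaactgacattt
TRAJ53 with threonine then serine: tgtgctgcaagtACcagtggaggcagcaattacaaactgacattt
TRAJ42 of the largest TRAV5N-4 clonotype: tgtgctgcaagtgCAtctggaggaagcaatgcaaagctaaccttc

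The beta chains that recurred with them joined TRBV19 (chr6:41178375-41179048) to TRBJ2-7 (chr6:41543810-41543856), or TRBV5 (chr6:41062332-41062803) to TRBJ1-1 (chr6:41533864-41533911), all on the plus strand of GRCm38. They are shown, marked in the same way, for the 3 largest clonotypes, for a TRB found in both genotypes, for a TRB with the same residues from other bases, and for 3 TRBV5 clonotypes; the capitals include any TRBD bases.
TRBV19 end: tgtgccagcagtatag
TRBJ2-7: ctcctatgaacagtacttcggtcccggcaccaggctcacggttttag
NOD 1, 25 cells: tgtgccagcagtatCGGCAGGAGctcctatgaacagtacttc
NOD 1, 15 cells: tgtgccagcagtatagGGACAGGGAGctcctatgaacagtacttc
NOD 1, 13 cells: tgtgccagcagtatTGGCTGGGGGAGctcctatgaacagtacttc
NOD 1 and Tet2KO NOD 2, 2 cells each: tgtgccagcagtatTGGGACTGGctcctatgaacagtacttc
Tet2KO NOD 1, 2 cells, same residues as the TRB of both genotypes: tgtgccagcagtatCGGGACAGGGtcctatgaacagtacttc
TRBV5, Tet2KO NOD 1, 10 cells: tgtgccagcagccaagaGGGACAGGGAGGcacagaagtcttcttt
TRBV5, NOD 1, 1 cell: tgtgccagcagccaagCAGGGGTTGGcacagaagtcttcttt
TRBV5, NOD 2, 1 cell: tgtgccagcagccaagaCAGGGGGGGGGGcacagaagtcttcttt

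Nearly all insulin-type receptors used TRAV5-4. TRAV5-4 with TRAJ53 gave 48 clonotypes and 124 cells, TRAV5-4 with TRAJ42 gave 14 and 16, and TRAV5N-4 with TRAJ42 gave 4 and 10. TRAV5N-4 with TRAJ53 gave 0 of 66 clonotypes. The CDR2 bases of the 2 segments were the same in the deposited contigs. Their CDR1 differed at 1 base, shown in capitals.
TRAV5-4 CDR1, 140 cells: Gacagtgcctccaactac
TRAV5N-4 CDR1, 10 cells: Aacagtgcctccaactac

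TRAV5-4 met TRAJ53 more often than the separate shares of the V and the J gave. The TRAV5-4 to TRAJ53 pair had 20 clonotypes in NOD 1, 8 in NOD 2, 7 in Tet2KO NOD 1 and 13 in Tet2KO NOD 2. These were 2.88, 2.34, 2.99 and 6.31 times the expected number in the same order, a mean of 3.63 ± 1.81 (SD, n = 4). Every library lay above 1, and Tet2KO NOD 2 stood highest. Over the libraries together the ratio was 3.25, which ranked 5 among the 375 pairs with an expected count of at least 5, whose median ratio was 0.933. TRAV5-4 with TRAJ42 had a ratio of 0.897 and TRAV5N-4 with TRAJ42 0.586. TRAV5N-4 with TRAJ53 had 0 clonotypes against 6.47 expected, a rank of 370 among the 375 pairs. These ratios are a description with no test.

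The share of insulin-type receptors was compared between genotypes first by clonotype, which counts each rearrangement once. It was 0.779% in NOD 1 (28 clonotypes, Wilson 95% interval 0.540% to 1.12%) and 0.709% in NOD 2 (12 clonotypes, 0.406% to 1.23%). In Tet2KO NOD 1 it was 1.11% (10 clonotypes, 0.605% to 2.04%) and in Tet2KO NOD 2 1.61% (16 clonotypes, 0.994% to 2.60%). Both Tet2KO libraries lay above both NOD libraries, though the intervals, which cover counting error only, overlapped. The NOD mean was 0.744% ± 0.0497 and the Tet2KO NOD mean 1.36% ± 0.353 (SD, n = 2), and the exact permutation test gave p = 0.33, the least that 6 assignments of the libraries allow. The difference was 0.618 percentage points. Leaving out Tet2KO NOD 2 gave 0.368, and leaving out Tet2KO NOD 1 gave 0.867.

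By cell, NOD 1 and Tet2KO NOD 2 were nearly equal. NOD 1 held 87 insulin-type cells (1.56%, Wilson 95% interval 1.27% to 1.92%) and NOD 2 held 13 (0.525%, 0.307% to 0.897%). Tet2KO NOD 1 held 28 (1.75%, 1.21% to 2.51%) and Tet2KO NOD 2 held 22 (1.58%, 1.05% to 2.38%). NOD 2 stood low, and both Tet2KO libraries lay above both NOD libraries. The means were 1.04% ± 0.734 and 1.66% ± 0.117 (SD, n = 2, exact permutation p = 0.33, two-sided). The genotypes overlapped (exact permutation p = 0.667) in 4 settings: with any productive TRA of a cell counted, with cells of several TRB kept, with at least 2 UMIs per chain, and without barcodes called as cells in over 1 library. The difference of 0.619 points fell to 0.0994 without NOD 2 and was 1.14 without NOD 1.

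**Figure D1:**
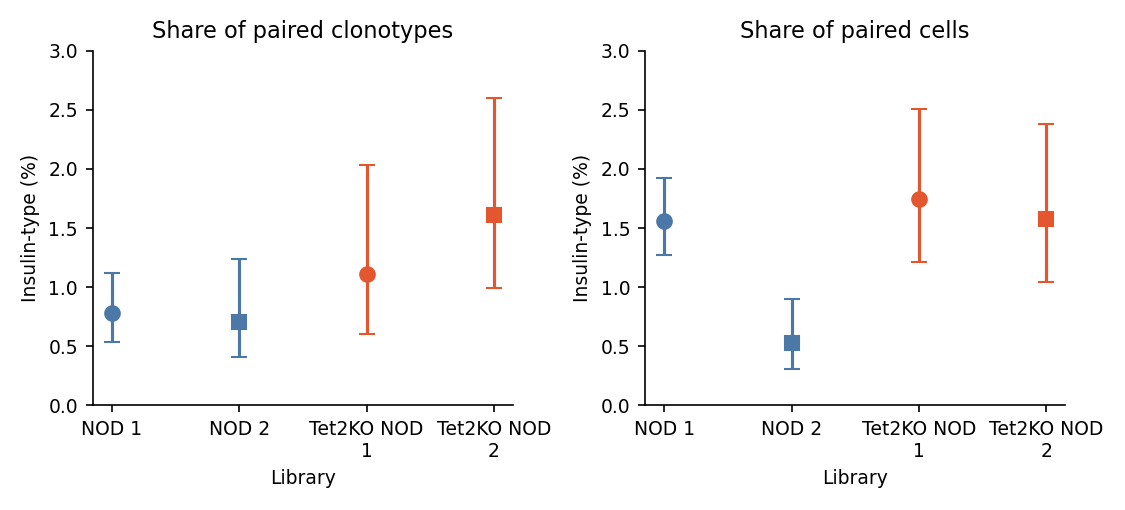
Percent of paired clonotypes (left) and of paired cells (right) that were insulin-type in each library; circles are set 1, squares set 2, blue NOD and red Tet2KO NOD, with Wilson 95% intervals for counting error. By clonotype the Tet2KO NOD libraries (1.11% and 1.61%) lie above the NOD libraries (0.779% and 0.709%), while by cell NOD 1 (1.56%) is level with Tet2KO NOD 2 (1.58%).

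In the fit of all TRAV-TRAJ pairs, none passed between genotypes. edgeR's quasi-likelihood test called 0 of 171 pairs higher (0%) and 0 lower (0%) in Tet2KO NOD at an adjusted p under 0.05, 4 had an unadjusted p under 0.05, and DESeq2 called 0. TRAV5-4 with TRAJ53 had a log2 fold change of 1.00 (SE 0.60, edgeR adjusted p = 0.977), with 20 and 8 clonotypes in NOD against 7 and 13 in Tet2KO NOD. It was 0.56 without Tet2KO NOD 2 and 0.53 with each cell counted once. TRAV5-4 with TRAJ42 had a log2 fold change of 0.16 (SE 0.88, edgeR adjusted p = 0.977), from 6 and 4 clonotypes against 2 and 2. TRAV5N-4 with TRAJ42 and TRAV5N-4 with TRAJ53 did not have 3 clonotypes in at least 2 libraries and were not tested.

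TRBV19 was the most frequent TRBV partner. It was in 9 of 28 insulin-type clonotypes in NOD 1, 4 of 12 in NOD 2, 4 of 10 in Tet2KO NOD 1 and 9 of 16 in Tet2KO NOD 2. Among the other clonotypes of the same libraries TRBV19 made up 7.77%, 10.1%, 7.09% and 8.39%. All 4 libraries showed the higher share in the insulin type, with means of 40.4% ± 11.1 against 8.34% ± 1.30 (SD, n = 4). edgeR's quasi-likelihood test, run over all 33 TRBV and TRBJ segments with the library as a block, called 2 segments higher (6.06%) and 0 lower (0%), and 4 had an unadjusted p under 0.05. TRBV19 was one of them, with a log2 fold change of 2.25 (SE 0.33, edgeR adjusted p = 3.71e-08). The dispersion of this fit was estimated near 0 (9.77e-05), so its p-values reflect little beyond counting error over clonotypes. The exact sign-flip permutation test of the within-library differences, which averaged 32.1 points, gave p = 0.13, the least that 4 libraries allow.

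TRBJ2-7, the most used J segment of the beta chain, was the other. It was in 12, 5, 4 and 10 insulin-type clonotypes of the NOD and then the Tet2KO NOD libraries, a mean share of 46.8% ± 10.6 against 20.2% ± 1.48 (SD, n = 4), and was higher in every library. Its log2 fold change was 1.22 (SE 0.19, edgeR adjusted p = 0.000682). The call was lost with TMM factors (edgeR adjusted p = 0.0855), with DESeq2 (0.260) and without Tet2KO NOD 2 (edgeR adjusted p = 0.0528). Both calls rest on shared clonotypes: all 26 TRBV19 members had TRBJ2-7, against 100 of 592 other TRBV19 clonotypes (16.9%). Among clonotypes without TRBV19, TRBJ2-7 was in 5 of 40 members (12.5%) and 1346 of 6521 others (20.6%).

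The other frequent partners did not pass. TRBV5 was in 6, 3, 2 and 3 insulin-type clonotypes in that order of libraries, a mean of 21.3% ± 2.70 against 10.1% ± 0.548 (SD, n = 4), with a log2 fold change of 1.05 (SE 0.38, edgeR adjusted p = 0.156). Its share was above that of the other clonotypes in each library. Its log2 fold change was 0.11 (edgeR adjusted p = 0.903) without barcodes that had a contig in another library, 0.61 with TMM factors, 0.47 with DESeq2 and 0.59 against the same TRAV with another TRAJ. TRBV1 averaged 7.93% of insulin-type and 6.73% of other clonotypes, the joined name TRBV12-2+TRBV13-2 5.21% and 11.4%, TRBV13-1 5.06% and 8.49%, and TRBV13-3 4.58% and 5.34%. Among J segments TRBJ1-1 averaged 13.4% and 9.50%, TRBJ2-3 8.30% and 11.4%, and TRBJ2-5 7.04% and 12.5%. In all, 14 TRBV names and 11 TRBJ segments occurred among the 66 clonotypes.

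**Figure D2:**
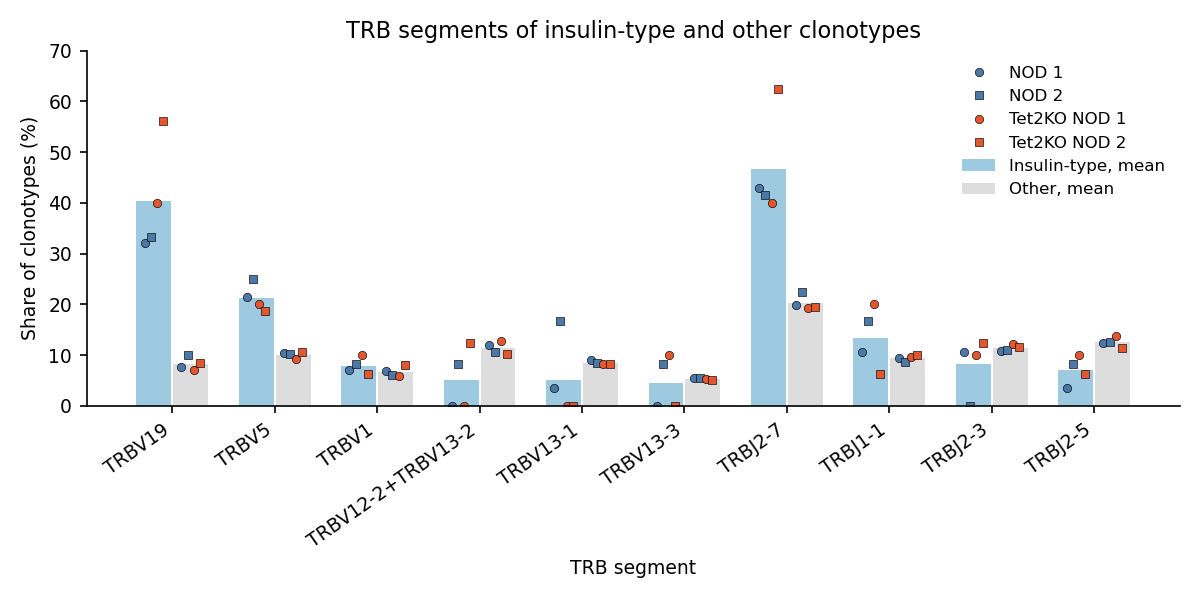
Share of clonotypes (%) with the 6 TRBV and 4 TRBJ segments most frequent in the insulin type; bars are means over the 4 libraries of insulin-type (blue) and other (grey) clonotypes, and points are single libraries. TRBV19 (40.4% against 8.34%), TRBJ2-7 (46.8% against 20.2%) and TRBV5 (21.3% against 10.1%) have every library higher in the insulin type, and TRBV5 did not pass the test.

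Among the 26 members with TRBV19, 25 had TRAJ53. TRBV19-TRBJ2-7 was in 25 of 48 members with TRAJ53 (52.1%, Wilson 95% interval 38.3% to 65.5%), from 9 of 20 in NOD 1, 3 of 8 in NOD 2, 4 of 7 in Tet2KO NOD 1 and 9 of 13 in Tet2KO NOD 2. It was in 1 of 18 members with TRAJ42 (5.56%, 0.988% to 25.8%), a clonotype of NOD 2. Neither the V nor the J alone carried this share. TRBV19-TRBJ2-7 was in 7 of 634 clonotypes with the same TRAV and another TRAJ (1.10%) and in 0 of 169 with TRAJ53 and another TRAV (Wilson upper bound 2.22%). It was in 6 of 211 with TRAJ42 and another TRAV (2.84%) and in 100 of 7113 outside the insulin type (1.41%). Fitted with only the TRAJ53 members, TRBV19 had a log2 fold change of 2.65 (edgeR adjusted p = 2.85e-09). With only the TRAJ42 members edgeR called 0 segments, 0 had an unadjusted p under 0.05, and TRBV19 was at -0.57 (edgeR adjusted p = 0.943). Against clonotypes with the same TRAV and another TRAJ it was 2.55 (edgeR adjusted p = 2.36e-08). That fit called 2 of 28 segments higher and 1 lower, TRBJ1-2 (edgeR adjusted p = 0.0148). TRBJ1-2 was in 0 of 66 members, which allows up to 4.55%, and in 46 of 634 clonotypes with the same TRAV (7.26%). By library the same-TRAV share ran from 4.49% in Tet2KO NOD 1 to 14.1% in Tet2KO NOD 2. Against all other clonotypes TRBJ1-2 did not pass (edgeR adjusted p = 0.156). The difference between TRAJ53 and TRAJ42 members was not tested. The 3 fits with only TRAJ53, only TRAJ42 and the same TRAV were chosen after the values were seen. Their p-values rest on clonotype counts, and some of these clonotypes shared a CDR3 within a library.

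**Figure D3:**
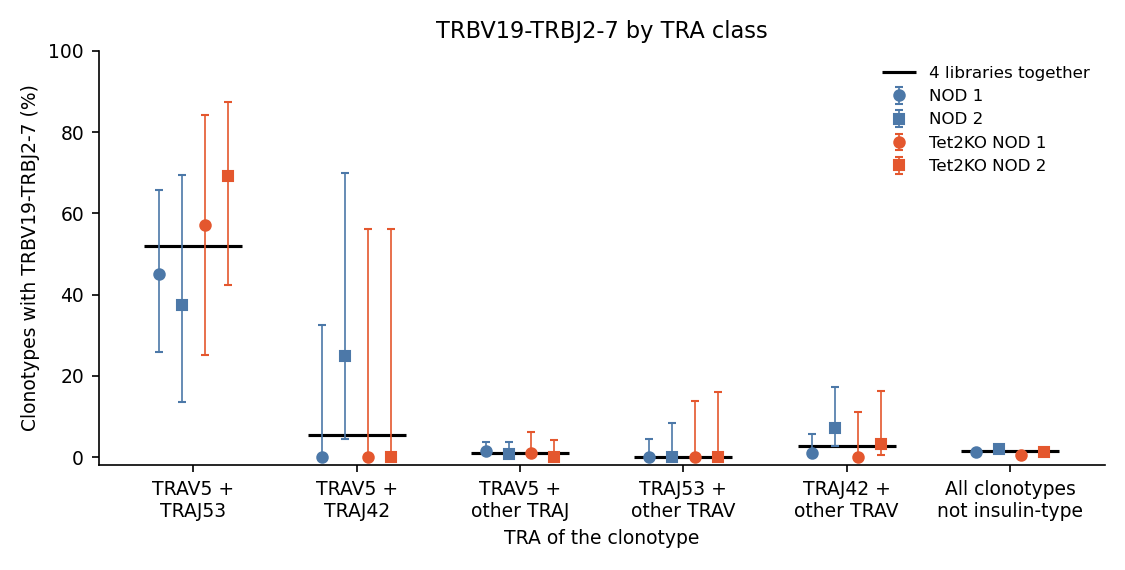
Share of clonotypes (%) with TRBV19-TRBJ2-7 by TRA class, per library with Wilson 95% intervals (circles set 1, squares set 2, blue NOD, red Tet2KO NOD) and over the 4 libraries together (black line). TRAV5 here means only TRAV5-4, TRAV5D-4 or TRAV5N-4, not the whole family. TRAV5 with TRAJ53 is at 52.1%, against 5.56% for TRAV5 with TRAJ42, 1.10% for TRAV5 with another TRAJ and 0 of 169 for TRAJ53 with another TRAV.

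By genotype, TRBV19 made up 32.1% and 33.3% of the insulin-type clonotypes in NOD and 40.0% and 56.3% in Tet2KO NOD. The groups did not overlap, with means of 32.7% ± 0.842 and 48.1% ± 11.5 (SD, n = 2, exact permutation p = 0.33, again the least possible). The difference was 15.4 points. Leaving out Tet2KO NOD 2 gave 7.26, and leaving out Tet2KO NOD 1 gave 23.5. This comparison was added after the values were seen.

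The CDR3 alpha of the TRAJ53 members was narrow in length. It had 15 residues, counted from the conserved cysteine to the last phenylalanine, in 38 of 48 clonotypes, and the others had 13, 14, 16 or 17. All 25 TRBV19 partners were among those 38, and 0 of the 10 clonotypes of other lengths had TRBV19. The TRAJ42 members ran from 10 to 17 residues, with 15 in 7 of 18. A median of 2 bases matched neither germline end in TRAJ53 members (range 0 to 10), and 4 in TRAJ42 members (range 0 to 12).

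The residue at position 5, the codon where TRAV5-4 ends, went with the TRBV partner among these 38 clonotypes. Glutamate, an acidic residue, was there in 19 clonotypes of 41 cells, and all 19 had TRBV19. They came from all libraries, with 5 in NOD 1, 2 in NOD 2, 3 in Tet2KO NOD 1 and 9 in Tet2KO NOD 2. Alanine, small and uncharged, was there in 8 clonotypes, also of 41 cells, and 7 of these had TRBV5 while 1 had TRBV19. That exception was the largest insulin-type clonotype, with 25 cells in NOD 1. Threonine was found in 3 clonotypes of 1 library (2 with TRBV19, 1 with TRBV5), valine in 3 and asparagine in 2. Aspartate, proline and arginine were found once each, with another TRBV. The position was picked after the sequences were seen, and no test was made.

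**Figure D4:**
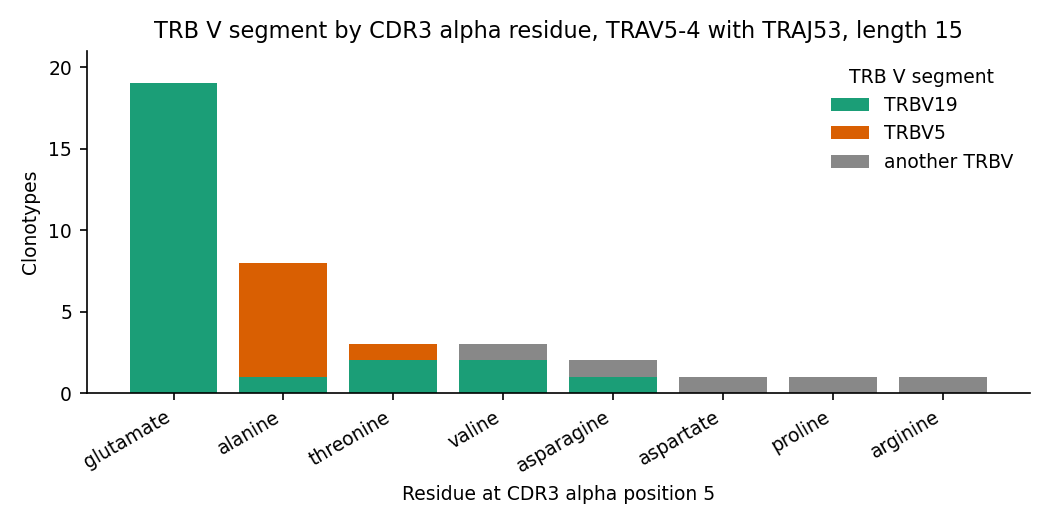
Number of clonotypes by the residue at CDR3 alpha position 5, counted from the conserved cysteine as 1, for the 38 TRAV5-4 with TRAJ53 clonotypes of CDR3 alpha length 15, coloured by TRBV partner. All 19 glutamate clonotypes have TRBV19, and 7 of 8 alanine clonotypes have TRBV5.

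Several alpha chains recurred with different beta chains. The glutamate-serine CDR3 was in 15 clonotypes of all 4 libraries (4 in NOD 1, 1 in NOD 2, 3 in Tet2KO NOD 1 and 7 in Tet2KO NOD 2), from the 2 nucleotide forms printed above. It met 14 distinct TRB nucleotide sequences, every one TRBV19-TRBJ2-7. Its residues occurred in 0 clonotypes outside the insulin type, which the rule largely set. Of its 45 bases, 13 match the V end and 30 match TRAJ53, the segments that the rule picked. The glutamate-glycine CDR3 was in 4 clonotypes of 3 libraries, all with TRBV19-TRBJ2-7. The alanine-serine CDR3 was in 6 clonotypes of 3 libraries, 5 with TRBV5 (4 of them TRBV5-TRBJ1-1) and 1 with TRBV19, and in 1 clonotype elsewhere. The threonine-serine CDR3 was in 3 clonotypes of NOD 1, and the valine-serine CDR3 in 3 clonotypes of 2 libraries, each with 2 TRBV19 partners. Of the TRAJ42 chains only the one with lysine then threonine recurred, in 1 clonotype each of NOD 1 and NOD 2 with different TRB. Clonotypes that share an alpha chain may come from 1 mouse or several within a pool.

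The TRBV19 beta chains resembled each other at CDR3 positions the selection of alpha chains did not use. Glycine was at position 6 in 25 of 26 members with TRBV19-TRBJ2-7 and in 29 of 100 other clonotypes with the same TRB segments. In the members it was in 8 of 9, 4 of 4, 4 of 4 and 9 of 9 clonotypes of the NOD and then the Tet2KO NOD libraries, and in the others in 17 of 47, 10 of 35, 2 of 5 and 0 of 13. The share in the members was higher in each library. The TRBV19 end encodes isoleucine at position 5, and isoleucine or methionine was there in 23 of 26 members and 60 of 100 others. Either of these followed by glycine at position 6 was in 22 of 26 members and 14 of 100 others. None of those 14 had a TRAV5 segment. Glycine at position 8 was in 21 of 26 and 45 of 100. That share was higher in the members of each library except Tet2KO NOD 1, with 2 of 4 against 4 of 5. The CDR3 beta had 14 or 15 residues in all 26 members (15 and 11), against 25 and 25 of 100. These positions were chosen after the sequences were seen.

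Short motifs were counted as well, the 5 most frequent in these members against other clonotypes of any TRBV and TRBJ. SYE, which spans the start of TRBJ2-7, was in 27 of 66 insulin-type clonotypes (40.9%) and 4.84% of the others. SIG, which starts in TRBV19, was in 18 (27.3%) against 0.703%, SSY in 14 (21.2%) against 1.94%, GTG in 12 (18.2%) against 6.19%, and GSS in 10 (15.2%) against 1.10%. Among the members SIG was found only with TRBV19 (18 of 18). TRBV19 members also held 25 of the 27 with SYE, 12 of 14 with SSY, 10 of 12 with GTG and 9 of 10 with GSS. These motif counts do not hold the TRBV19-TRBJ2-7 pairing fixed. With it fixed, isoleucine or methionine then glycine was still in 22 of 26 members and 14 of 100 others. How much of the motif excess goes with the pairing was not tested. No motif was tested.

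Whole beta CDR3 sequences recurred as well. The same CDR3 beta residues occurred in 5 clonotypes of 3 libraries with 1 alpha CDR3, from 4 TRB nucleotide sequences. Another 3 CDR3 beta were in 3 clonotypes each, with 2 or 3 different alpha CDR3. All 4 used TRBV19-TRBJ2-7, and each was in 0 clonotypes outside the insulin type. Only 1 insulin-type clonotype had identical bases in both chains in over 1 library, namely NOD 1 and Tet2KO NOD 2, with 2 cells in each. Its 4 cells had 4 distinct barcodes, 1 of them with a contig in another library, and 3 to 9 TRA and 4 to 28 TRB UMIs. Carry-over of molecules between libraries was not tested. Without clonotypes found in over 1 library TRBV19 kept a log2 fold change of 2.17 (edgeR adjusted p = 1.52e-07), and without the 34 member barcodes that had any contig in another library, together with such barcodes of other cells, 2.28 (edgeR adjusted p = 3.20e-05).

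TRBV5 partners formed a smaller group. Of 14 TRBV5 members, 10 had TRAJ53 and 4 TRAJ42. TRBV5-TRBJ1-1 was in 5 members with TRAJ53, 2 of them in NOD 1 and 1 in each other library, and in 14 of 634 clonotypes with the same TRAV and another TRAJ. All 5 had a glycine just before the bases of TRBJ1-1 that encode threonine, glutamate and valine, as did 8 of 74 other TRBV5-TRBJ1-1 clonotypes. TRBV5 members made up 23 cells, and the 1 expanded among them held 10 cells in Tet2KO NOD 1.

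The beta chains of the TRAJ42 members were varied. Their 18 clonotypes used 10 TRBV names and 10 TRBJ segments. They held 26 cells, with 10, 4, 9 and 3 in the NOD and then the Tet2KO NOD libraries. Only 2 were expanded: a TRAV5N-4 clonotype with TRBV2-TRBJ1-3 of 7 cells in Tet2KO NOD 1, and a TRAV5-4 clonotype with TRBV1-TRBJ2-7 of 3 cells in NOD 1.

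Clone sizes varied widely between the libraries of each genotype. Clonotypes of 2 or more cells, called expanded, numbered 9 of 28 in NOD 1, 1 of 12 in NOD 2, 4 of 10 in Tet2KO NOD 1 and 3 of 16 in Tet2KO NOD 2, against 13.3%, 13.2%, 18.7% and 14.7% of the other clonotypes. The insulin type was above the others in 3 libraries and below in NOD 2. The difference averaged 9.81 points ± 12.4 (SD, n = 4, exact sign-flip permutation p = 0.375). Against the same TRAV with another TRAJ, of which 19.9%, 15.4%, 22.5% and 23.5% were expanded, it averaged 4.46 points (exact permutation p = 0.500). Without Tet2KO NOD 1 the difference from all others was 5.98 points, and without NOD 2 14.7 points.

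The mean size of an insulin-type clonotype was 3.11 cells in NOD 1, 1.08 in NOD 2, 2.8 in Tet2KO NOD 1 and 1.38 in Tet2KO NOD 2, against 1.54, 1.46, 1.77 and 1.40 in the others. It was higher in the set 1 libraries and lower in those of set 2. The mean difference was 0.547 cells ± 0.908 (SD, n = 4, exact sign-flip permutation p = 0.500), and 0.206 without NOD 1, whose 3 largest clonotypes held 53 of its 87 insulin-type cells. It was 0.857 without NOD 2. Against the same TRAV with another TRAJ it was 0.378 cells (exact permutation p = 0.500), and against TRAJ53 or TRAJ42 with another TRAV 0.120 (exact permutation p = 1).

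Of the insulin-type cells, 78.2% in NOD 1, 15.4% in NOD 2, 78.6% in Tet2KO NOD 1 and 40.9% in Tet2KO NOD 2 were in expanded clonotypes. The means were 46.8% ± 44.4 and 59.7% ± 26.6 (SD, n = 2, exact permutation p = 0.667). The genotypes overlapped. The difference of 13.0 points turned to -18.4 without NOD 2 and to -5.86 without Tet2KO NOD 1. After thinning each library to 1392 cells, the number in the smallest, the shares were 66.0%, 8.41%, 77.8% and 40.9%.

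**Figure D5:**
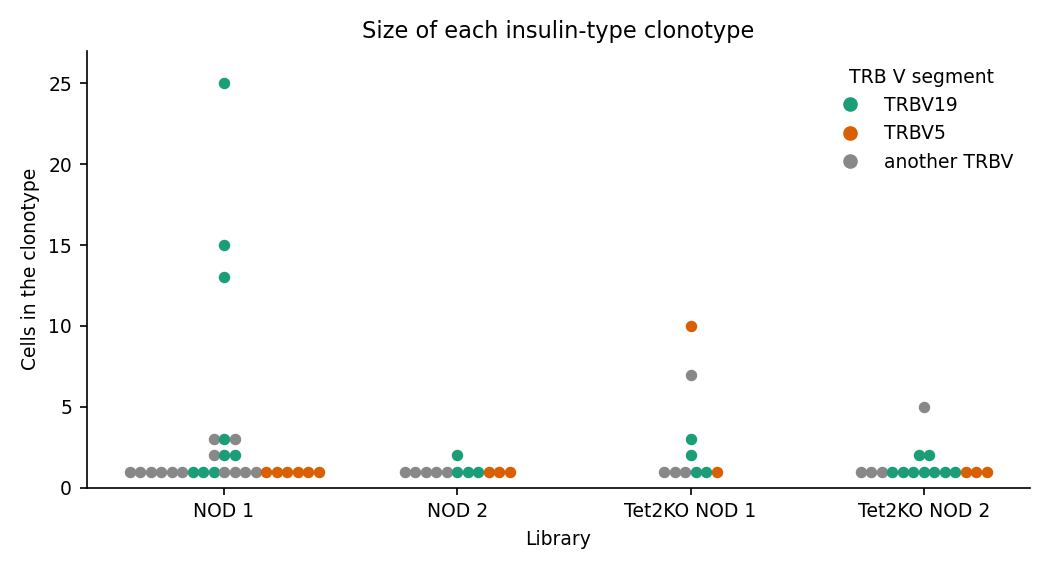
Cells in each of the 66 insulin-type clonotypes by library, coloured by TRBV partner. The 3 clonotypes above 10 cells are all in NOD 1 and have TRBV19. The largest in the other libraries hold 2, 10 and 5 cells. Sizes are raw counts, from 5564, 2475, 1604 and 1392 paired cells in the NOD and then the Tet2KO NOD libraries.

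Large clones carried TRBV19 in NOD 1 and other TRBV in Tet2KO NOD. The clonotypes of 25, 15 and 13 cells in NOD 1 all joined TRBV19 to TRBJ2-7, with alanine, threonine and glutamate at CDR3 alpha position 5. In Tet2KO NOD 1 the largest had TRBV5 (10 cells) and TRBV2 (7 cells), and in Tet2KO NOD 2 TRBV12-2+TRBV13-2 (5 cells). The other 4 clonotypes of 3 cells were in NOD 1, with TRBV19, TRBV3 and TRBV1, and in Tet2KO NOD 1 with TRBV19. The 26 TRBV19 members held 86 cells, and 11 were expanded, against 1 of 14 with TRBV5 and 5 of 26 with another TRBV. By library TRBV19 cells were 63 of 87 in NOD 1, 5 of 13 in NOD 2, 7 of 28 in Tet2KO NOD 1 and 11 of 22 in Tet2KO NOD 2. Sizes are raw counts from libraries of 5564, 2475, 1604 and 1392 paired cells, so they cannot be compared directly between libraries. The largest clonotype held 28.7% of the insulin-type cells in NOD 1 and 15.4% in NOD 2. In Tet2KO NOD 1 and Tet2KO NOD 2 it held 35.7% and 22.7%. Whether TRBV partner and clone size differ by genotype was not tested.

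The CDR3 beta was longer in the insulin type in every library. It averaged 14.4 residues in NOD 1, 14.5 in NOD 2, 14.3 in Tet2KO NOD 1 and 14.8 in Tet2KO NOD 2, against 13.9 to 14.0 in other clonotypes. The difference was 0.506 residues ± 0.164 (SD, n = 4, exact sign-flip permutation p = 0.13, the least possible). Hydropathy on the Kyte-Doolittle scale, averaged over residues 6 and 7 of the CDR3 beta, was higher by 0.289 ± 0.365 (SD, n = 4, higher in 3 of 4 libraries, exact permutation p = 0.375), and by 0.145 without Tet2KO NOD 2. TRBJ2 cluster segments made up 75.0%, 66.7%, 60.0% and 87.5% of insulin-type clonotypes, above the others in NOD 1 and Tet2KO NOD 2 and below them elsewhere, a mean difference of 4.82 points ± 12.8 (SD, n = 4, exact permutation p = 0.625).

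Receptor recovery and signs of other cells were looked at in the same barcodes. The median insulin-type cell had 6, 10, 7 and 6 TRA UMIs in the NOD and then the Tet2KO NOD libraries, against 6, 6, 5 and 6 in other paired cells. For TRB it had 12, 17, 9.5 and 7.5 UMIs, against 11, 13, 10 and 11. Of the 150, 7 rested on 1 TRA UMI. A second productive TRA was found in 9, 3, 0 and 1 cells, a mean difference of -2.27 points ± 9.10 from other cells (SD, n = 4, exact permutation p = 0.625). None of the second TRA was of the invariant NKT type (TRAV11 with TRAJ18) or the MAIT type (TRAV1 with TRAJ33). Contigs of gamma or delta chains were present in 7 barcodes, 0 of them productive, and immunoglobulin contigs in 0. Of the 150 barcodes, 2 were also called cells in another library. The rule left out 10 paired cells that had such a TRA as the chain with fewer UMIs, 18 with over 1 TRB and 2 with no TRB. Leaving out cells with over 1 TRB was the only step against doublets, and no doublet caller was run, so doublets with 1 TRB recovered remain.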

How the data were processed

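The authors deposited, per the file headers, tables of assembled contigs that name the chain, segments, CDR3 and flags, and give whole-number counts of reads and UMIs. Contigs and cell calls came from Cell Ranger 7.0.1 with the build GRCm38 (mm10), per the submitters' processing notes. The V(D)J segment set was not given in the sources used here. High-confidence, full-length, productive contigs of called cells were used. The members and the lists were chosen with earlier results of these data known.

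Each clonotype was counted once per library. Genotypes were compared by exact two-sided permutation over 6 assignments, and insulin-type with other receptors of the same library with an exact sign-flip test. Segments with at least 10 clonotypes in all, and TRAV-TRAJ pairs with at least 3 in at least 2 libraries, were tested with edgeR 4.0.16 (quasi-likelihood, R 4.3.3), the library size being the number of clonotypes, with Benjamini-Hochberg adjustment over all rows kept. DESeq2 1.42.0, TMM factors, other cell and clonotype definitions and each library left out were alternatives. The edgeR step was also run on simulated counts that held counting error only, and its outcome is not given here. Named segments were those passing the test and the 6 TRBV and 4 TRBJ most used by members; clonotypes of 3 or more cells, recurrent alpha CDR3 and the 5 most frequent CDR3 beta motifs were also named. Germline ends were read from GRCm38, and the mice are NOD. Intervals are Wilson 95% and cover counting error only.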

Additional observations from a re-analysis of the deposited data

Results flagged for a closer look

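Barcodes not called as cells also held insulin-type TRA contigs, in data outside the comparisons above. They made up 1.06% (5 of 472) and 0.787% (1 of 127) of productive TRA contigs of such barcodes in NOD 1 and NOD 2, and 1.30% (1 of 77) and 1.64% (1 of 61) in Tet2KO NOD 1 and 2, whose mean was 1.47%. The Tet2KO NOD values rest on 1 contig each.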

How the results depend on the processing

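No exact permutation test passed 0.05 under any setting run, and 4 libraries could not reach it. Leaving out each library, the genotype difference in expanded cells ran from -18.4 to 44.4 points (-5.86 without Tet2KO NOD 1), the difference in cells with a second TRA from -6.46 to 0.574 points, and that in TRBJ2 segments from -0.397 to 9.29 points. Counting any productive TRA of a cell turned the second-TRA difference to 4.59 points, by construction, since cells with more chains then had more chances to meet the rule. Of the 33 TRB segments, 1 was called with TMM factors and 1 with DESeq2, which moved the median log2 fold change of all segments by -0.44 and -0.55, and leaving out single libraries gave 1 to 2. With only TRAJ42 members (added later) 0 were called, with TRBV19 at -0.57 and TRBJ2-7 at -0.28. TRBV19 passed in the other 14 settings. TRAV5-4 with TRAJ42 turned from 0.16 to -0.17 with TMM factors, -0.084 with DESeq2 and -0.17 with each cell counted once. Causes were not tested. The set numbers share only a number, and 2 pairs could not be checked for pairing: with the set as a replicate block the differences between genotypes were 0.618 points by clonotype, 0.619 by cell and 13.0 in expanded cells (exact sign-flip p = 0.500 for each, the smallest possible), and 0 TRAV-TRAJ pairs passed.

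The edgeR dispersion of the TRB segments was estimated at 9.77e-05, near 0, so its p-values reflect little beyond counting error over 66 clonotypes. Libraries hold 10 to 28 insulin-type clonotypes, and a share within a library is that imprecise. The cells of each mouse were not known.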
